A study of Homo sapiens with 2 samples.

Results

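The genes described here encode the serine/arginine-rich (SR) splicing factors, the TRA2 proteins, the heterogeneous nuclear ribonucleoproteins (hnRNPs) and the CLK and SRPK kinases that phosphorylate SR proteins. They were taken from the deposited gene table by biotype and symbol. A gene was a member if it was protein-coding, had no hyphen in its symbol, and its symbol began with SRSF or HNRNP or was one of CLK1 to CLK4, SRPK1, SRPK2, TRA2A and TRA2B. This gave 45 members of 46427 gene rows: 12 SR protein genes, 2 TRA2 genes, 25 hnRNP genes, 4 CLK genes and 2 SRPK genes. The rule used no expression value, though it was set with earlier results of these data known. Total RNA was sequenced from cells labelled MiaPaca2, given as a pancreatic adenocarcinoma line. One group was treated with vehicle and the other with iMQT_020, described in the labels as an inhibitor of the mitochondrial glutamine transporter, both for 48 hours. Each group was 1 library, so no difference below has a replicate check and no test of the treatment was possible.

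SR proteins bind exonic enhancers through RNA recognition motifs and recruit the spliceosome through a domain rich in arginine and serine, while many hnRNPs bind silencers and oppose exon inclusion. SRPK kinases phosphorylate SR proteins in the cytoplasm, which lets them enter the nucleus, and CLK kinases phosphorylate them further in the nucleus and release them from nuclear speckles. Many SR and hnRNP genes, and CLK genes as well, carry alternative exons or retained introns through which the level of their own productive mRNA is adjusted.

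The libraries held 67095283 (vehicle) and 59139157 (iMQT_020) estimated read counts. CDKN2A, a gene that MIA PaCa-2 is known to lack, had a TPM (a level scaled for transcript length and depth) of 278 with vehicle and 208 with iMQT_020. CD44, a surface receptor for hyaluronan, had 0.0964 and 0.0209 TPM. CDKN2A thus goes against the cell line label, and the cells are called by their library here. Of the marker lists of other cell types, the 7 pancreatic acinar and islet genes had 0 counts in both libraries. The 5 immune markers summed to 1.18 and 2.05 TPM, with 3 of them at 0 in both libraries, the 4 endothelial markers to 0.443 and 0.613 TPM, and the 7 fibroblast markers to 18.2 and 12.8 TPM, with 2 at 0.

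None of the splicing genes was 2-fold apart between the libraries. A gene was measured if it had at least 50 counts in a library, which 41 of the 45 members did. Of all 14805 measured genes, 2.15% were higher by 2-fold or more with iMQT_020 and 3.09% were lower by that much. By a 1.5-fold rule, 2 members were higher, against 6.30% of measured genes, and 0 were lower, against 10.2%. These 2 were CLK1 and CLK4. A set of 9312 abundant genes, with 1000 counts or more in either library, held 40 of the 41 measured members. In this set 2.59% passed the 1.5-fold rule as higher and 5.42% as lower. Of the 41 members, 37 had a log2 ratio (iMQT_020 over vehicle, of CPM, counts scaled to a common depth) under 0.3 in size, or 90.2%, against 66.9% of those abundant genes. The 4 others were CLK1, CLK4, CLK2 and HNRNPDL. The libraries are bulk RNA, so a different level per cell and a different share of cells with the transcript cannot be told apart.

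The members spanned a wide range of abundance, from 8.15 TPM for SRSF12 to 1825 TPM for HNRNPA2B1 in the vehicle library, with a median of 252 TPM. The order changed little: ranked by TPM, 25 of the 41 genes held the same place or moved by 1, and the largest shift was 4 places. Together the members took 2.06% of all vehicle counts and 1.97% of all iMQT_020 counts, with 95% Wilson intervals of 2.06% to 2.07% and 1.96% to 1.97%. Such an interval covers counting error only and treats the authors' estimates as whole reads, and nothing here measures the spread between cultures.

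**Figure D1:**
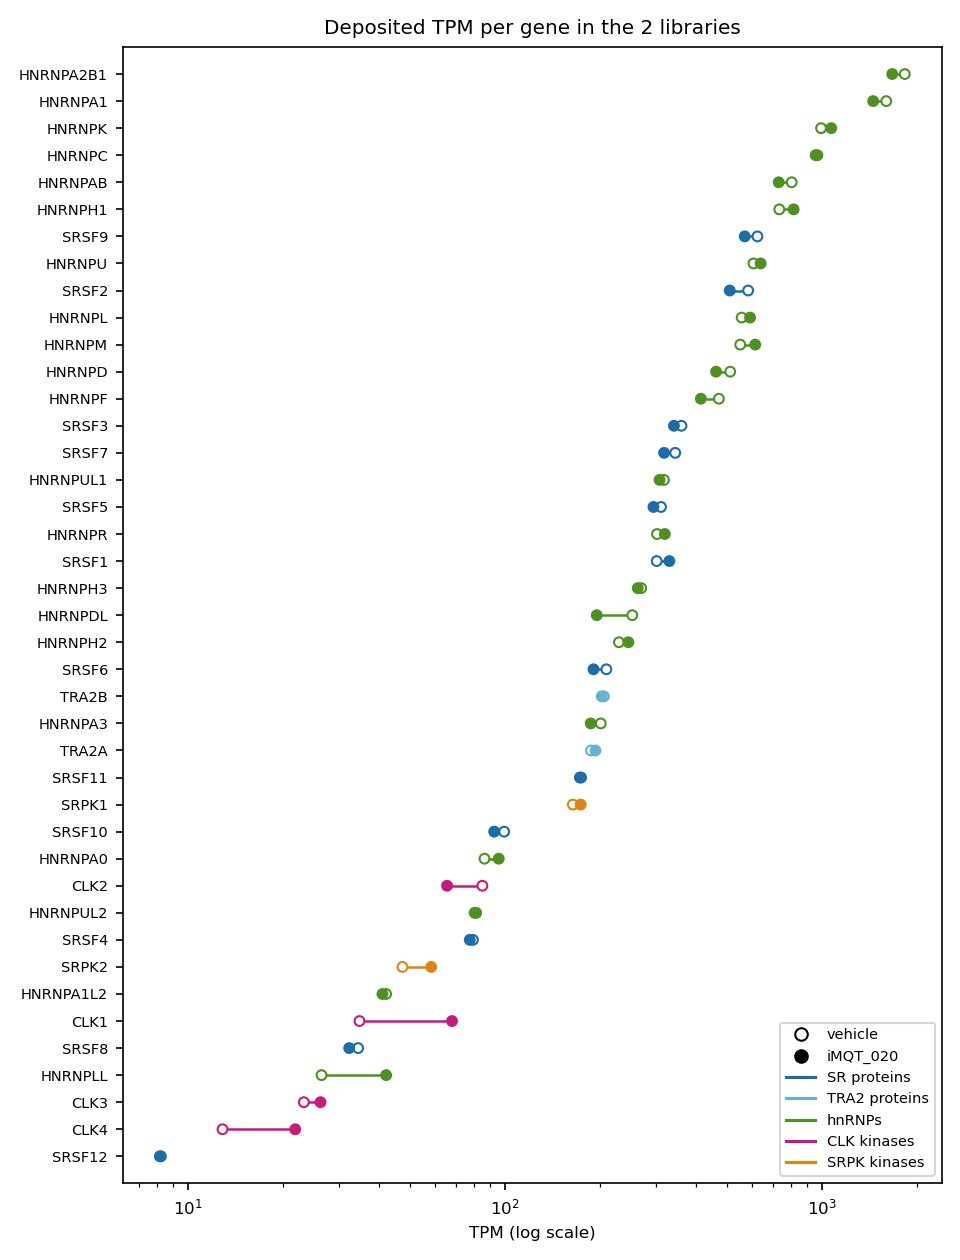
TPM of the 41 measured genes on a log axis, ordered by the vehicle library; open circles are vehicle, filled circles iMQT_020, and colours mark the class. The circles lie close together for most genes and farthest apart for CLK1 (34.8 and 68.1 TPM), CLK4 and HNRNPLL.

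The CLK kinases, nuclear kinases that phosphorylate both serine and tyrosine residues, differed in opposite directions. CLK1 had 2384 counts with vehicle and 3628 with iMQT_020. Its deposited levels were 34.8 and 68.1 TPM, and 14.3 and 27.1 FPKM (fragments scaled by transcript length and depth). Its log2 ratio of 0.78 (exact 95% interval 0.71 to 0.86, counting error only) was the highest of the 41 members, and 3.45% of measured genes and 0.64% of the abundant genes had a higher one. CLK1 was thus 1.72-fold higher by counts, 1.90-fold by FPKM and 1.96-fold by TPM in the iMQT_020 library.

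CLK4, its close relative, had 960 and 1393 counts, 12.9 and 21.8 TPM, and 5.28 and 8.68 FPKM. The log2 ratio of CLK4 was 0.71 (0.59 to 0.83), the second highest. CLK2 was the most abundant of the 4 in the vehicle library, with 5411 counts, 84.9 TPM and 34.9 FPKM, and had 3578 counts, 65.7 TPM and 26.2 FPKM in the iMQT_020 library. Its log2 ratio of −0.42 (−0.48 to −0.36) was the lowest of all members by counts, level with HNRNPDL, which also stood at −0.42 and whose interval overlaps. After centring on GC content and transcript length HNRNPDL was lower, at −0.48 against −0.22, and by TPM both were at −0.37. CLK3 had 1865 and 1776 counts, 23.2 and 26.2 TPM, and 9.54 and 10.4 FPKM, with a log2 ratio of 0.11 (0.01 to 0.20).

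The order of the CLK genes by TPM therefore differed between the libraries. With vehicle CLK2 stood at 2.44 times the TPM of CLK1, and with iMQT_020 at 0.965 times, a near-equal level. CLK3 and CLK4 followed in that order in both. Summed over the 4 genes, the class had 156 TPM with vehicle and 182 TPM with iMQT_020, a ratio of 1.17, against 1.96 for CLK1 and 1.70 for CLK4. CLK1 and CLK4 shared no stretch of 50 bases with each other or with any other gene searched, while CLK2 shared 6.13% of its stretches, all with its pseudogene CLK2P1, and CLK3 shared 3.32%.

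CLK1 lies on chromosome 2 from 200853009 to 200864658, CLK4 on chromosome 5 from 178602664 to 178627050, CLK2 on chromosome 1 from 155262868 to 155273504, and CLK3 on chromosome 15 from 74608372 to 74630201 (RefSeq, GRCh38.p14). The 250 bases before each start are shown because 2 of these genes were higher together and 1 was lower. They are at chr2:200864659-200864908, chr5:178627051-178627300 and chr1:155273505-155273754, all on the minus strand, and at chr15:74608122-74608371 on the plus strand, read 5′ to 3′ from RefSeq. Capitals mark matches on either strand to 4 motifs. They are the GC box, spelled GGGCGG, the CCAAT motif, the E-box, spelled CACGTG, and the core of the cyclic AMP response element, spelled TGACGT.
CLK1: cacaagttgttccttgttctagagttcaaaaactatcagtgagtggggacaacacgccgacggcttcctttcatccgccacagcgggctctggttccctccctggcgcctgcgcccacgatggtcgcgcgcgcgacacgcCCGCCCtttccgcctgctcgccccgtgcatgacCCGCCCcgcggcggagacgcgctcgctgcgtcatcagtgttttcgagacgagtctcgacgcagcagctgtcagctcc
CLK4: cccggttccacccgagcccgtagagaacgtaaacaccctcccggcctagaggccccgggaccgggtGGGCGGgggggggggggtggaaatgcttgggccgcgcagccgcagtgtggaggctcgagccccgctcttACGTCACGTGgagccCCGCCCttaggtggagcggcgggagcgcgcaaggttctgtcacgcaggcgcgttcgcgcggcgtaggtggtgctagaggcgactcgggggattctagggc
CLK2: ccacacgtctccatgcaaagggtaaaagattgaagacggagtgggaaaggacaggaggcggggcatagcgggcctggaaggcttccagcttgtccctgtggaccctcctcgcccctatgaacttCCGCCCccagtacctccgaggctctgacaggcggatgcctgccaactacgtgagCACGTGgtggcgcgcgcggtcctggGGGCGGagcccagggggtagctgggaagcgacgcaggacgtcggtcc
CLK3: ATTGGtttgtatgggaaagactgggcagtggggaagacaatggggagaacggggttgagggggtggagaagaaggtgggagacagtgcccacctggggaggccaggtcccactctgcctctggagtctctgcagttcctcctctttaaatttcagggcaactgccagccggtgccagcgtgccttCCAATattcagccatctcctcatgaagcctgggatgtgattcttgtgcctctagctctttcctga

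CLK1, CLK4 and CLK2 each held 2 GC boxes, and CLK3 held 2 CCAAT motifs and no GC box. An E-box stood in both CLK4 and CLK2, and in CLK4 it overlapped the response element core. Of 38 measured members with a RefSeq promoter, 25 held a GC box, 16 a CCAAT motif, 8 an E-box and 7 the response element core. HNRNPA1, SRSF2 and TRA2A had no such promoter. The shares over all 35116 promoters of the same length were 42.6%, 32.0%, 6.34% and 7.10%. Those promoters were not limited to measured protein-coding genes, as the members are, so the sets are unlike and enrichment was not tested. The other motifs searched on both strands were absent from the 4 CLK windows. They were the full cyclic AMP response element TGACGTCA, which contains the core above and which 1.65% of all promoters held, an ETS motif CCGGAAG (8.52%), the TATA box TATAAA (10.7%) and the AP-1 motif TGANTCA (6.57%). These matches describe letters in the windows and are not evidence of binding, and a link of any motif to the ratios was not tested.

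The SRPK kinases, which act on SR proteins in the cytoplasm, showed a small difference in 1 of 2 genes. SRPK2 had 5621 and 6088 counts, 47.5 and 58.5 TPM, and 19.5 and 23.3 FPKM, a log2 ratio of 0.29 (0.24 to 0.34) and the third highest of the members. SRPK1 had 21365 and 19263 counts, 164 and 173 TPM, and 67.3 and 69.0 FPKM, and the interval of its log2 ratio held 0 (0.03, −0.00 to 0.06). SRPK1 stood at 3.45 times the TPM of SRPK2 with vehicle and 2.96 times with iMQT_020. The span of SRPK2 overlaps KMT2E, which had 84.3% as many counts in the vehicle library and a log2 ratio of 0.22, and the part of shared reads in the value was not tested.

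SR protein genes were slightly lower in the iMQT_020 library almost throughout. Of the 12 genes, 11 had a log2 ratio below 0, against 52.7% of all measured genes. The median was −0.13, against −0.02 over all measured genes. Its order-statistic 95% interval, −0.18 to −0.04, runs over the 12 genes, which share both libraries and are no replicates. For 9 of the 12 the whole counting interval lay below 0, against 39.1% of measured genes. By deposited TPM, which sets the median over all measured genes at a log2 ratio of 0.02, 9 of the 12 were below 0, against 47.6% of measured genes, with a median of −0.09. No SR gene was farther than 0.23 from 0 on the log2 scale, and their summed level was 3130 TPM with vehicle and 2940 TPM with iMQT_020.

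The most abundant SR gene was SRSF9, whose protein has a short arginine-serine domain, at 21485 and 16788 counts, 626 and 571 TPM, and 257 and 227 FPKM. Its log2 ratio was −0.18 (−0.21 to −0.15), and 0.03 once centred on the median of genes of like GC content and transcript length. SRSF9 overlaps GATC, which had 53.9% as many counts in the vehicle library. SRSF2, a classical speckle protein also known as SC35, had 33616 and 25322 counts, 585 and 512 TPM, and 241 and 204 FPKM. It had the lowest log2 ratio of the class at −0.23 (−0.26 to −0.21). SRSF3, the smallest SR protein, had 45134 and 36580 counts, 360 and 341 TPM, and 148 and 136 FPKM, with a log2 ratio of −0.13 (−0.15 to −0.11). All 3 were lower in the iMQT_020 library by each of the 3 units.

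SRSF1, the founding SR protein known as ASF/SF2, was the exception by counts, with 47698 and 44922 counts, 301 and 330 TPM, and a log2 ratio of 0.09 (0.07 to 0.11), but −0.02 after centring. It moved from the sixth to the fourth place among SR genes by TPM. SRSF7, a shuttling SR protein with a zinc knuckle, was at −0.19, SRSF6 at −0.17, SRSF8, a retrogene copy of SRSF2, at −0.14, SRSF10, a splicing repressor when dephosphorylated, at −0.14, and SRSF5 at −0.12. The intervals of SRSF4 (−0.04, −0.10 to 0.02) and SRSF12 (−0.02, −0.16 to 0.12) held 0, and SRSF11 was at −0.07. SRSF12 had 874 and 762 counts beside 8917 and 7168 of PM20D2, the gene it overlaps, and the part of shared reads in its value was not tested. Split by structure, the 7 SR genes whose proteins have 1 RNA recognition motif had a median of −0.14 and were all below 0 by counts, though SRSF11 and SRSF12 were at 0.01 by TPM, and the 5 with 2 such motifs had a median of −0.12 with 4 below 0.

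The TRA2 genes, homologues of the fly splicing regulator transformer-2, both had a counting interval that held 0. TRA2B had 18402 and 16495 counts, 205 and 202 TPM, and 84.4 and 80.5 FPKM, with a log2 ratio of 0.02 (−0.01 to 0.05). TRA2A had 10741 and 9352 counts, 187 and 193 TPM, and 76.8 and 76.9 FPKM, with a log2 ratio of −0.02 (−0.06 to 0.02). The sign of both ratios turned with TPM (−0.02 for TRA2B and 0.05 for TRA2A).

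The 21 measured hnRNP genes were spread on both sides of 0. Of them 9 had a log2 ratio above 0, against 47.3% of measured genes, and 12 below, with a median of −0.03 (−0.16 to 0.06). By TPM 11 were above 0 and the median was 0.02. Their summed level was 11415 TPM with vehicle and 11202 TPM with iMQT_020, 3.65 and 3.81 times that of the SR genes. The 4 members not measured were HNRNPCL1, HNRNPCL2, HNRNPCL3 and HNRNPCL4, close relatives of HNRNPC. HNRNPCL1 had 2 and 1 counts, HNRNPCL3 and HNRNPCL4 had 0 and 1, and HNRNPCL2 had 0 in both libraries, which a floor of 3 counts places below 0.0448 CPM (vehicle) and 0.0506 CPM (iMQT_020).

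The 2 most abundant hnRNP genes were lower. HNRNPA2B1, which encodes a core protein of the hnRNP particle, had 157706 and 125032 counts, 1825 and 1667 TPM, and 750 and 664 FPKM, with a log2 ratio of −0.16 (−0.17 to −0.15). HNRNPA1, a repressor that antagonises SRSF1 at splice sites, had 170177 and 131442 counts, 1595 and 1451 TPM, and 656 and 578 FPKM, with a log2 ratio of −0.20 (−0.21 to −0.19). Together these genes made up 30.0% of the summed hnRNP TPM with vehicle and 27.8% with iMQT_020. HNRNPK, a KH-domain protein that binds poly(C), came next with 82163 and 75668 counts, 994 and 1070 TPM, and 408 and 426 FPKM, and was at 0.06 (0.04 to 0.07).

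HNRNPA1 shares 32.7% of its 50-base stretches with other genes. The table lists 71 pseudogenes named after it, with 12293 vehicle counts and 9930 iMQT_020 counts, 7.22% and 7.55% of the counts of HNRNPA1 itself. Summed with them, its log2 ratio was −0.19. HNRNPA1L2, an expressed retrocopy that shares 54.5% of its stretches with other genes, was at −0.07 (−0.15 to 0.01), and its value is uncertain for that reason. In the A/B subfamily HNRNPA3 was at −0.16 and HNRNPA0, a single-exon gene, at 0.10. Thus 4 of the 5 measured genes were below 0, against 52.7% of all measured genes.

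The D subfamily was lower by counts in all 3 of its genes, against 52.7% of all measured genes below 0. HNRNPDL, whose protein resembles the AU-rich element binding protein of HNRNPD, had 31193 and 20693 counts, 252 and 195 TPM, and 104 and 77.6 FPKM. Its log2 ratio of −0.42 (−0.44 to −0.39) was the lowest of the hnRNPs, and 16.8% of measured genes had a lower one. HNRNPD, also called AUF1, which promotes the decay of mRNAs with AU-rich elements, was at −0.23. HNRNPAB was at −0.18, but at −0.05 once centred on GC content and transcript length. HNRNPD and HNRNPDL lie 48.6 kb apart on chromosome 4 (82352498 to 82373991 and 82422564 to 82430462). CLK4 and HNRNPH1, 987.1 kb apart, were both above 0, as were 47.3% of all measured genes. A link of position to the ratios was not tested. HNRNPAB at −0.18 lies 391.5 kb from CLK4 at 0.71, and HNRNPLL at 0.17 lies 141 kb from SRSF7 at −0.19.

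In the F/H subfamily, which binds runs of G, HNRNPF had 37462 and 28230 counts, 473 and 415 TPM, and 195 and 165 FPKM, with a log2 ratio of −0.23 (−0.25 to −0.21). Its relatives HNRNPH1 and HNRNPH2 were at 0.10 and 0.05, and HNRNPH3 at −0.08. HNRNPH1 passed HNRNPAB to become the fifth most abundant member, at 814 TPM against 734 TPM in the vehicle library. The read-through gene RPL36A-HNRNPH2, which contains HNRNPH2, had 431 and 1044 counts, a log2 ratio of 1.45. The part of shared reads in the value of HNRNPH2 was not tested. The remaining genes were HNRNPM at 0.11, HNRNPR at 0.08, HNRNPU, a nuclear scaffold protein, at 0.03, HNRNPL at 0.02, HNRNPC at −0.02, HNRNPUL2 at −0.03 and HNRNPUL1 at −0.09. HNRNPUL2 shares 45.3% of its stretches with the read-through gene HNRNPUL2-BSCL2, which had 1263 and 1921 counts, a log2 ratio of 0.78. The value of HNRNPUL2, near 0, is uncertain for that reason.

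**Figure D2:**
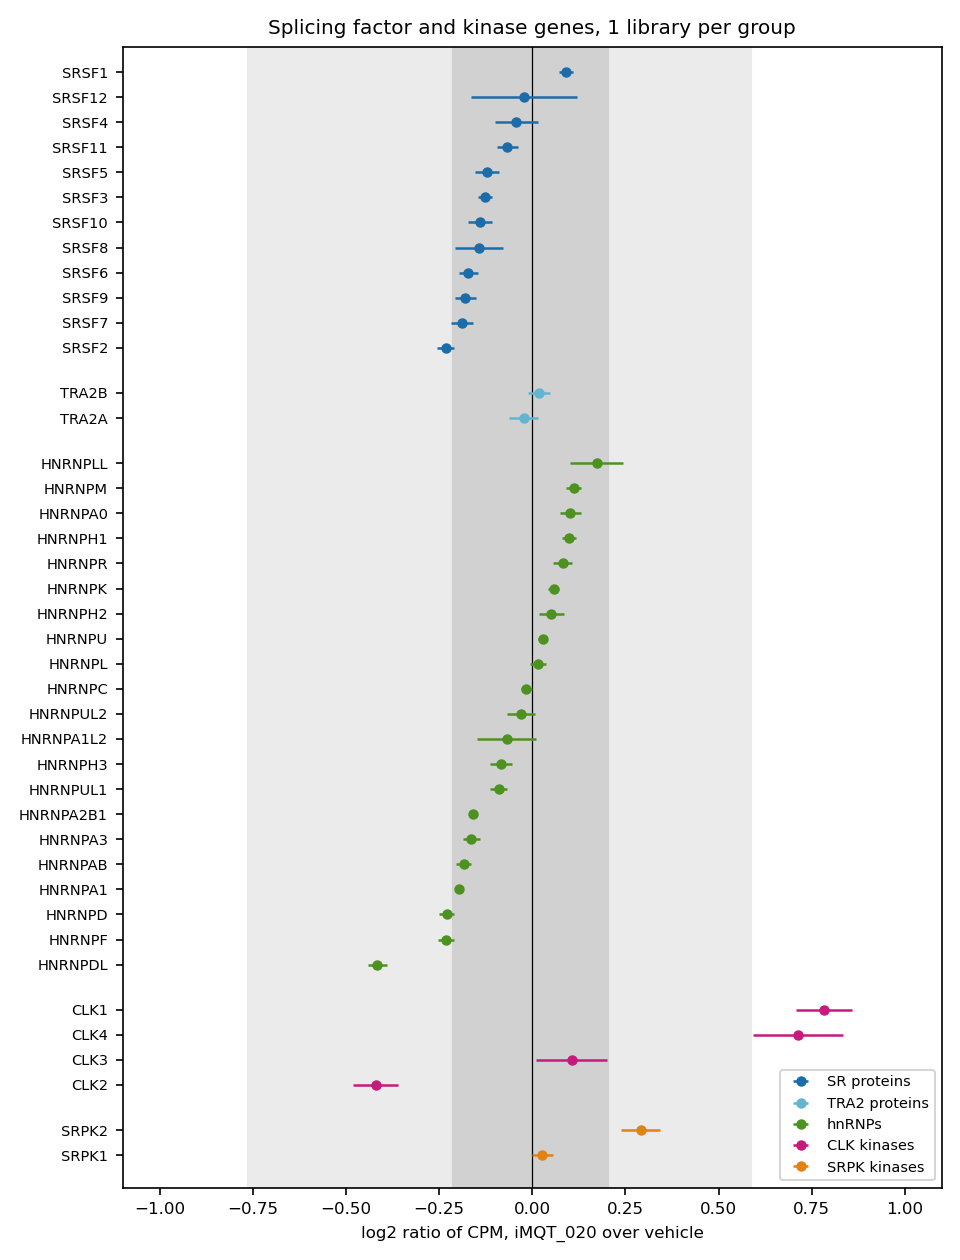
Log2 ratio of CPM, iMQT_020 over vehicle, for the 41 measured genes by class; points are the ratios of 1 library to another and bars are exact 95% intervals of counting error. The light and dark bands hold the central 95% (−0.76 to 0.59) and the interquartile range of the 9312 abundant genes, and only CLK1 and CLK4 of the members lie outside the light band.

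HNRNPLL was the gene for which the units disagreed most. It encodes a paralogue of HNRNPL known for its part in the splicing of CD45 in lymphocytes. Its counts were nearly equal, 3165 and 3158, a log2 ratio of 0.17 (0.10 to 0.25) once scaled for depth. Its deposited level, by contrast, went from 26.4 to 42.2 TPM and from 10.8 to 16.8 FPKM, 1.60-fold and 1.55-fold higher in the iMQT_020 library. FPKM divides by transcript length. If counts and FPKM rest on the same assignment of reads, which is not stated, together they give the mean transcript length used. Scaled on 1167 protein-coding genes listed with 1 transcript, where this length was between 0.9999 and 1.0001 of the annotated length over the interquartile range of these genes, HNRNPLL had a mean transcript length of 4025.5 bases with vehicle and 2932 bases with iMQT_020.

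The difference between the log2 FPKM ratio and the log2 count ratio was 0.46 for HNRNPLL, larger in size than that of 99.7% of 8620 genes with at least 1000 counts in each library. HNRNPLL was the only one of the 41 members with a difference of at least 0.2 in size, against 1.90% of those genes. CLK1 had the next largest difference at 0.14, larger than 96.5% of those genes, with a mean length of 2302 bases with vehicle and 2087 bases with iMQT_020 over 4 listed transcripts. TRA2B went the other way, at −0.09, from 3009 to 3196 bases. CLK4 is listed with 1 transcript, so its lengths of 2506 and 2504 bases were bound to be alike and say nothing of its transcripts. Each SR gene lay within 0.04 of 0. Each length is a mean over the annotated transcripts of a gene, so it does not show which of them differed. No count of single transcripts, exons or introns was analysed here.

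**Figure D3:**
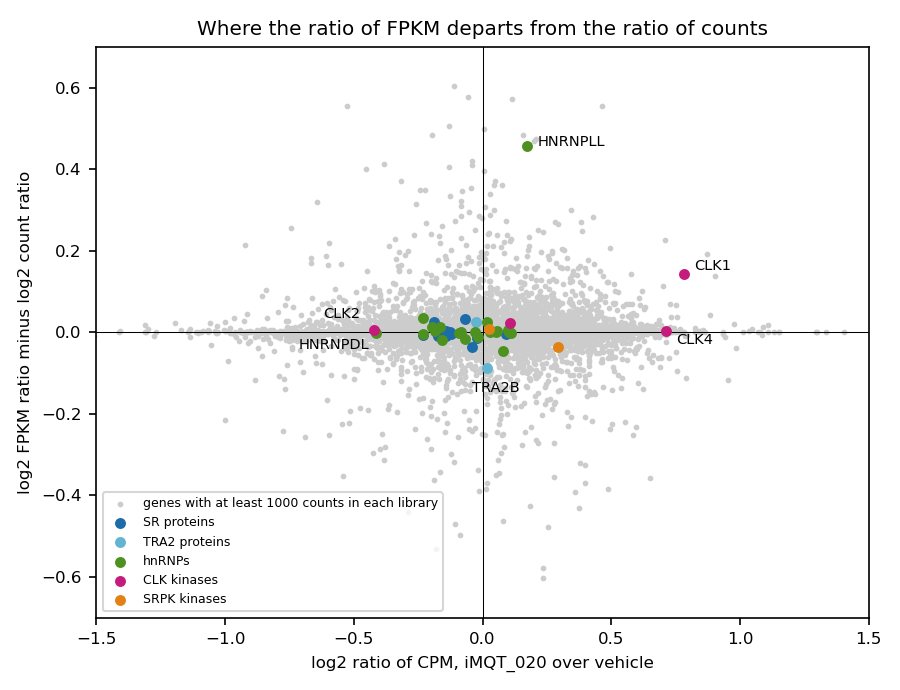
Log2 FPKM ratio minus log2 count ratio (both centred on their medians over measured genes) against the log2 count ratio, iMQT_020 over vehicle; grey points are genes with at least 1000 counts in each library, coloured points the 41 members. HNRNPLL (0.46) and CLK1 (0.14) lie above the other members, which gather along 0.

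The members' transcripts were poorer in G and C than most, with a median GC content of 41.8% against 48.5% over 13853 measured genes that have a value. Over all these genes the log2 ratio was related to GC content (Spearman's rho −0.34; the genes share both libraries and are no replicates), and over the 41 members rho was −0.24. CLK1 and CLK4 had 38.6% and 37.3% GC, and CLK2 and CLK3 55.4% and 55.9%. Centred on the median of genes of like GC content and transcript length, CLK1 was at 0.76, CLK4 at 0.62, CLK3 at 0.31 and CLK2 at −0.22, so the distance between CLK1 and CLK2 was smaller but kept its direction. The SR median was −0.18 after centring, with 2 of 12 above 0. These 2 were SRSF4 and SRSF9, at 0.03 each, while SRSF1 went below 0, and SRSF2 and SRSF5 came nearer to 0, at −0.17 and −0.02. Of the hnRNP genes 5 of 21 were then above 0, with a median of −0.08, and HNRNPA0, HNRNPR, HNRNPU and HNRNPLL went from above to below 0. HNRNPDL was at −0.48 after centring.

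**Figure D4:**
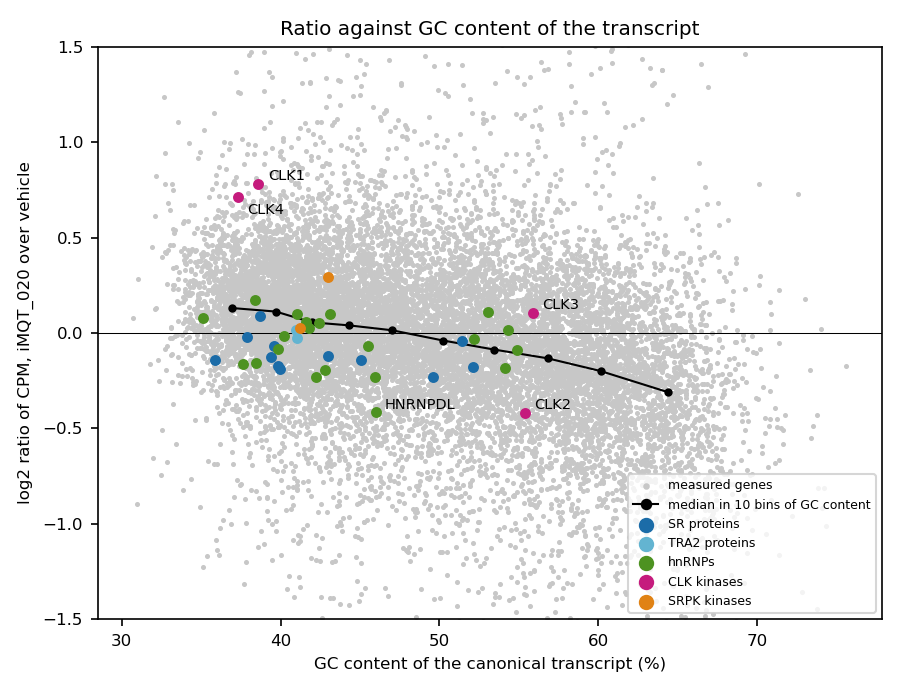
Log2 ratio of CPM, iMQT_020 over vehicle, against the GC content of the canonical transcript in percent; grey points are measured genes (those beyond 1.5 in size are not drawn), the black line joins medians of 10 bins, and coloured points are the members. CLK1 and CLK4 lie above the line and most SR genes (median −0.13) below it.

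Other genes of the splicing pathway were read from fixed lists, also chosen with earlier results of these data known. On these 8 lists, 0 of the 132 measured genes were 2-fold apart. The counts by sign stand against 47.3% of all measured genes above 0 and 52.7% below. The U1 and U2 list held snRNP genes and the associated SF1, U2AF1 and U2AF2, whose proteins recognise the splice sites and branch point. These genes had a median log2 ratio of −0.12 with 13 of 18 below 0 by counts. Once centred on GC content and length, the median was 0.01 with 12 of 18 above 0. By counts they ran from SNRNP70, a U1 protein bound by SR proteins, at −0.41 to SF1, the branch point binding protein, at 0.20. Sm and LSm ring proteins had a median of −0.10 with 11 of 14 below 0, from LSM2 at −0.25 to LSM8 at 0.20. Proteins of the U4/U6.U5 tri-snRNP and the catalytic stage went the other way, with a median of 0.15 and 18 of 25 above 0. SNU13, which binds the U4 snRNA and is shared with box C/D snoRNPs, was their lowest at −0.86, with 7269 and 3552 counts, and SLU7, a second-step factor, their highest at 0.41.

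SR-related proteins, which have arginine-serine stretches but are not classical SR proteins, had a median of 0.13 with 12 of 18 above 0. The nuclear speckle scaffolds SRRM2 and SON, the highest of this list, were at 0.60 (44879 and 60366 counts) and 0.49, and SRRM3 was its lowest at −0.25. Their summed TPM was 2205 and 2557. The 10 hnRNP-class genes with other symbols had a median of 0.10, from PTBP1, the polypyrimidine tract binding protein, at −0.21 to RBMX at 0.19. The 21 measured alternative splicing regulators had a median of 0.07 with 14 above 0, but of −0.07 with 9 above 0 after centring. Their spread by counts was wide, from RBM5 at −0.52 to MBNL2, a muscleblind protein, at 0.64. Other kinases, phosphatases and import carriers of SR proteins had a median of 0.14 with 9 of 11 above 0, from PPP1CA at −0.09 to DYRK1B at 0.36. Nonsense-mediated decay factors, which degrade the unproductive isoforms of many SR genes, had a median of 0.14 with 12 of 15 above 0, from UPF3B at −0.26 to SMG6 at 0.53. Of the 132 genes 2, SRRM2 and MBNL2, were at least 1.5-fold higher by counts, against 6.30% of measured genes, and 1, SNU13, was at least 1.5-fold lower, against 10.2%. By TPM the log2 ratio of SRRM2 was 0.52, under that rule. After centring SRRM2 at 0.58 and MBNL2 at 0.46 were both under it, while SNU13 at −0.69 still passed it. Of the list extremes, 3 that were below 0 by counts were above 0 after centring: SNRNP70 (0.01), SRRM3 (0.00) and PPP1CA (0.22). The medians of the other 6 lists kept their sign after centring, but most came nearer to 0. They were 0.01 for the hnRNP-class genes with other symbols, −0.04 for Sm and LSm proteins and 0.08 for tri-snRNP and catalytic-stage proteins. SR-related proteins and the other kinases, phosphatases and carriers were at 0.09 each, and the decay factors at 0.16. By TPM the medians of all 8 lists kept their sign.

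**Figure D5:**
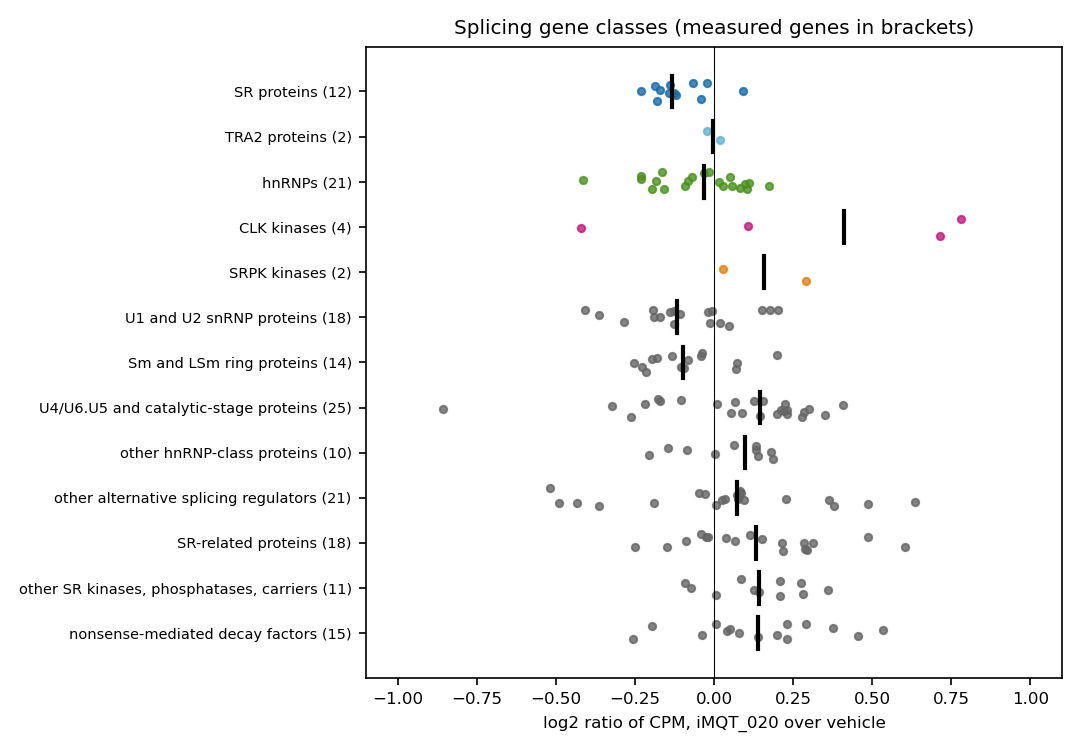
Log2 ratio of CPM, iMQT_020 over vehicle, for each measured gene of the 5 member classes (coloured) and of 8 other splicing lists (grey), with a black bar at each median. SR proteins, U1 and U2 proteins and Sm and LSm proteins have medians of −0.13, −0.12 and −0.10 (−0.18, 0.01 and −0.04 once centred on GC content and length, which is not drawn).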

How the data were processed

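The authors mapped reads to GRCh38 with Bowtie2 through HISAT2, per the labels' protocols. The submitters' processing notes also name StringTie and edgeR, without a role. Per gene, the authors deposited an estimated count in whole numbers beside an FPKM and a TPM value, both scaled by transcript length and depth. How reads were counted, and with which strand setting, is not given in the sources used here. A shorter deposited table of FPKM served to match columns to labels, and 0 columns of sample values had no sample.

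Library sizes were scaled with TMM from edgeR 4.0.16 (R 4.3.3). Ratios used a prior count of 0.5 and needed 50 counts or more in either library. Intervals are exact Clopper-Pearson 95% intervals of the split of counts. GC content and length came from canonical transcripts of GENCODE 44, in 10 by 10 bins of at least 20 genes. Shared stretches of 50 bases were sought in pseudogenes and in genes of the member families. Python 3.11.15, numpy 2.4.6, pandas 2.3.3 and scipy 1.17.1 were used, and calculations were tested on simulated data.

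The members and lists were chosen with earlier results of these data known. Named in full were the 4 highest and 4 lowest members, all kinases and TRA2 genes, the 3 most abundant SR and hnRNP genes, the 3 members with the largest FPKM minus count difference, and the extremes of each list; other members named with TPM or counts were chosen after their values were seen. Alternatives covered scaling, minimum counts, prior count, fold rule, unit, overlapping genes and GC centring.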

Additional observations from a re-analysis of the deposited data

How the results depend on the processing

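No paired analysis was possible because each group is 1 library, and no library could be left out. Counts over all members were compared across settings, as were the medians of all members, SR proteins, hnRNPs and CLK kinases. They kept within 1.5 times or within their intervals under 5 other scalings, including the size factors of DESeq2 1.42.0. Minimum counts of 10 or 200 left the same 41 members measured, so these counts and medians could not change. The counts and medians kept within the same limits with a prior count of 5 and with deposited FPKM or TPM. The intervals of medians run over genes, and that of the CLK kinases is their full range, so this is a weak check. By TPM the hnRNP median turned from −0.03 to 0.02, and 3 SR genes rather than 1 were above 0. The exceptions follow. With no minimum count, 2 members were at least 2-fold higher, HNRNPCL3 and HNRNPCL4 at 0 and 1 counts, and a 1.5-fold rule also gave 2. Among the 21 members that overlap no other gene, 6 were above 0. Centred on GC content and length, the SR median was −0.18, and 10 members changed sign, against 6 with TPM and 2 with FPKM. The members' share of counts was 2.15% (vehicle) and 2.08% (iMQT_020) of totals without mitochondrial and rRNA genes, and 1.17% and 1.08% without members that overlap other genes. For the FPKM minus count difference, 1 member lay outside the central 95% of measured genes, 2 with a minimum of 200 counts, and 37 outside the much narrower spread of genes listed with 1 transcript, a reference chosen after the data were seen. A further setting, also chosen after the data were seen, left out 7 measured members. These share at least 10% of their 50-base stretches with a pseudogene or a gene of the member families, the only genes searched. All 7 were hnRNP genes, so the SR median could not move. The medians of all members and of hnRNPs stayed within their intervals. The counting intervals were widest for SRSF12 and CLK4, the measured members with the fewest vehicle counts, and held 0 for SRSF12, HNRNPA1L2 and SRSF4 among others.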
